A study of Ericerus pela with 2 samples.

Results

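The ecdysone receptor, its partner ultraspiracle and the early genes of the moulting hormone response were examined in 2 RNA libraries of male Ericerus pela, a scale insect farmed in China for the wax its males secrete. Unigenes, the assembled transcript fragments that the deposited tables count, were kept when their database match named an ecdysone or ecdysteroid receptor, ultraspiracle, E75, broad-complex, FTZ-F1, hormone receptor 3 or 38, or any nuclear receptor, and did not name a coactivator, corepressor, binding or interacting protein. The rule used no measured value. It found 21 of 120710 unigenes, after 7 of 28 matches had been dropped by the excluded words. The terms hormone receptor 3 and hormone receptor 38 found no unigene in that spelling.

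Ecdysteroids are steroid hormones that trigger each insect moult and the change to the adult. They bind a pair of nuclear receptors, the ecdysone receptor and ultraspiracle, which then act on DNA as 1 complex. In Drosophila the complex switches on early genes such as E75 and broad, and a series of further nuclear receptors (HR3, E78, HR4, FTZ-F1) follows in waves, so that the level of each one marks a phase of the hormone pulse. Male scale insects pass through a prepupa and a pupa before the winged adult, while females do not, and the step between these male stages is a moult.

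Each stage was represented by 1 library of wild-type males with an age of 90 given without a unit, and there were no replicates. The labels name the whole body as the tissue while the design note names the retina. The libraries held 2182108 uniquely assigned reads in prepupae and 1840877 in pupae. Summed over marker unigenes, muscle proteins held 2795 RPM (reads scaled to the library total) in prepupae and 5226 in pupae (18 of 58 unigenes at least 2-fold higher, 2 lower), cuticle proteins 77.4 and 732 (12 of 17 higher, 1 lower), fat body proteins 642 and 374 (4 of 11 lower, 0 higher) and germ line proteins 347 and 86.9 (12 of 14 lower, 0 higher). Photoreceptor proteins held 7.33 and 389 (6 of 7 higher, 0 lower). Of all unigenes that passed the filter described below, 23.0% were at least 2-fold higher and 39.4% at least 2-fold lower. The 4 of 11 lower in fat body are near that share and are no result about this tissue. Markers of all 5 tissues were read in both libraries. These sums moved with the stage, and their part in the receptor values was not tested. In whole animals, fewer cells of a type and less RNA per cell cannot be told apart.

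Few receptor unigenes passed the rule of size used here. Change was measured as the log2 ratio of RPKM + 1 (reads scaled to unigene length and library total), pupae over prepupae, for unigenes whose mean RPKM was 1 or more, and a difference of at least 2-fold was counted as higher or lower. Of the 21 receptor unigenes 20 passed the filter, and 2 of them were called higher, 0 lower and 18 neither. Over all 113976 unigenes that passed, 23.0% were called higher and 39.4% lower. Both receptor calls rested on 2 or 3 reads in pupae against 0 in prepupae. Among the 12 receptor unigenes with at least 20 reads in sum, 0 were called in either direction, against 17.9% higher and 37.5% lower of all 42104 unigenes of that depth. These 12 ran from −0.50 to 0.92 on the log2 scale.

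**Figure D1:**
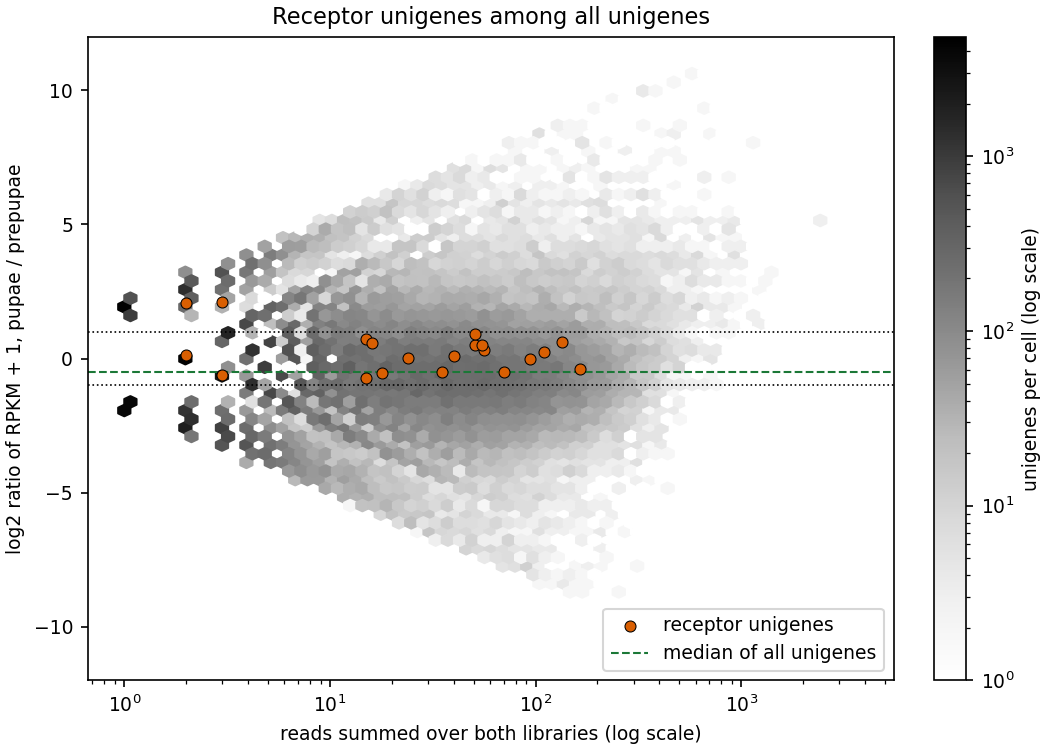
Log2 ratio of RPKM + 1 in pupae over prepupae (vertical axis) against the reads of a unigene summed over both libraries (horizontal axis, log scale); grey cells count all unigenes whose mean RPKM was 1 or more, orange points are the 20 receptor unigenes that passed, dotted lines mark 2-fold and the dashed line the overall median of −0.49. Only the 2 receptor points with 2 and 3 reads lie above the upper dotted line, and none lies below the lower one.

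The receptors sat above the general drift of the libraries. The median log2 ratio of all unigenes was −0.49 (0.712-fold), and that of the receptor unigenes was 0.19, which is 0.69 above it. Of the 20, 15 lay above the overall median and 5 below. All 21 unigenes together held 498 prepupal and 462 pupal reads, 1.10-fold when scaled to the library totals, with an exact 95% counting interval of 0.967 to 1.25. With 1 library per stage no test across animals is possible, and this interval, like those below, covers counting error only. How the drift is treated matters for the calls: with TMM scaling 5 receptor unigenes were called higher, and 7 after centring on the overall median. In both settings these included the main E75 unigene, the longest FTZ-F1 unigene and broad-complex. Over all unigenes the number called higher also rose, from 26264 as deposited to 32761 with TMM scaling and 34176 after centring. After centring, 7 of 20 receptor unigenes thus stand beside 34176 of all 113976 that passed. These shares are near each other, so the added calls are no result about the receptor unigenes.

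Levels spanned a wide range, although neighbours in the order could not be separated at this depth. In prepupae the highest receptor unigene was an ecdysone receptor at 92.3 RPKM (95% Poisson interval 69.6 to 120), followed by ultraspiracle at 71.5 (53.2 to 94.0) and E75 at 65.8 (49.96 to 85.1). In pupae the same ecdysone receptor unigene had 109 RPKM (82.4 to 142), E75 102 (80.5 to 128) and ultraspiracle 71.4 (51.7 to 96.2). The intervals of every 2 neighbours in the order overlapped in both libraries. The leading ecdysone receptor unigene stood at percentile 93.5 of all filtered unigenes in prepupae and 95.6 in pupae.

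**Figure D2:**
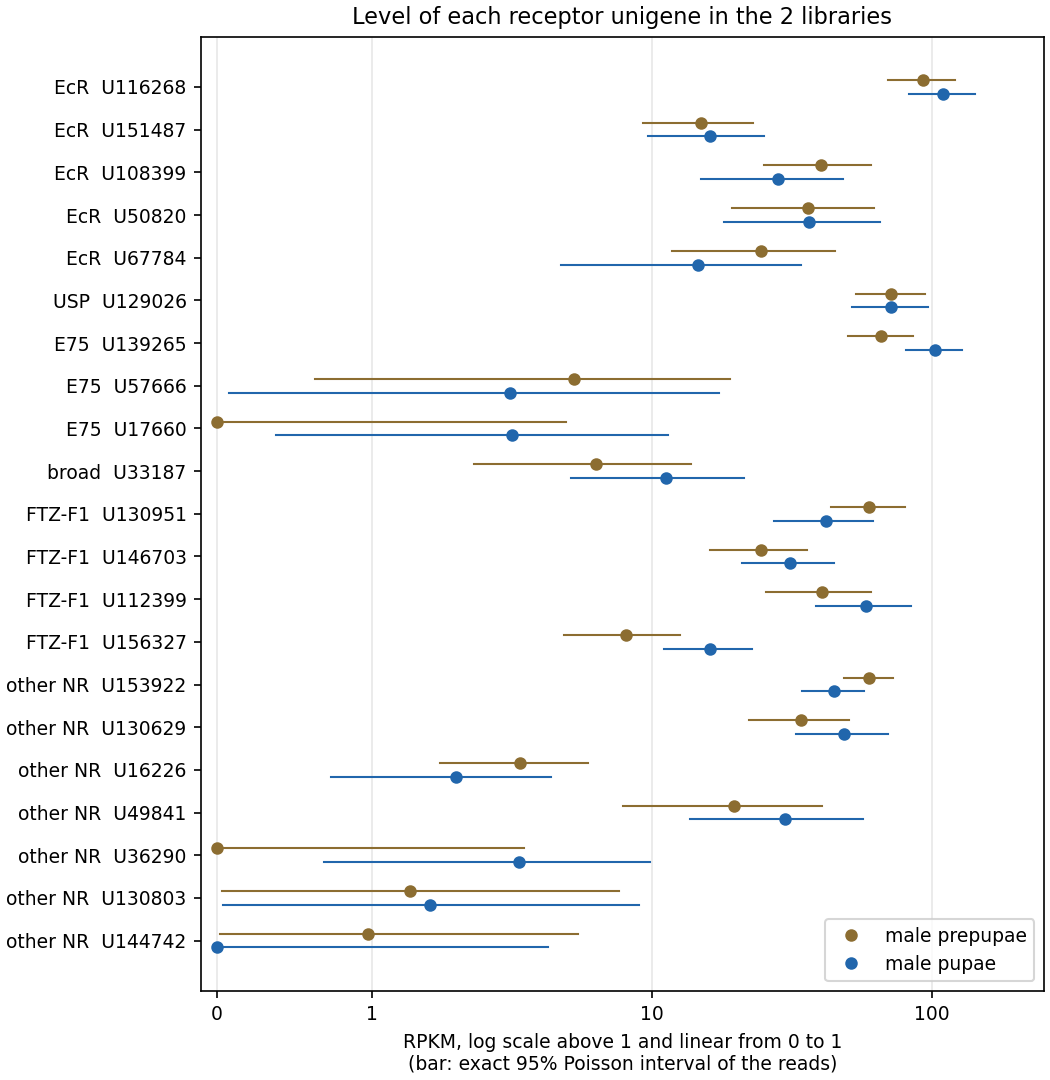
RPKM of each of the 21 receptor unigenes (horizontal axis, log scale above 1 and linear from 0 to 1) in male prepupae (brown) and male pupae (blue), 1 library each; bars are exact 95% Poisson intervals of the reads, EcR is ecdysone receptor, USP ultraspiracle, NR nuclear receptor, and U stands for Unigene. The brown and blue points of most unigenes lie within each other's bars, from 92.3 and 109 RPKM for the leading ecdysone receptor unigene down to unigenes with 0 to 3 reads.

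The ecdysone receptor, which binds the hormone, matched 5 unigenes. Unigene116268_FOB (273 bases) had 55 prepupal and 55 pupal reads, which is 1.19-fold in RPM (0.801 to 1.75). Unigene151487_FOB (644 bases) had 21 and 19 reads and Unigene50820_FOB (165 bases) 13 and 11. For these 3 the reads per library total differed by at most 1.19-fold. Unigene108399_FOB (252 bases) had 22 prepupal and 13 pupal reads, 0.700-fold (0.324 to 1.45). Unigene67784_FOB (187 bases) had 10 and 5, 0.593-fold (0.159 to 1.90). Both of these ratios lay below 1, with intervals that included it. Per length the 5 unigenes differed among themselves more than between the stages, from 14.9 RPKM in Unigene151487_FOB to 92.3 in Unigene116268_FOB in prepupae. Whether they are pieces of 1 transcript, isoforms or separate genes was not tested, as no sequences were used here. Pooled over their 1521 bases, the level was 36.5 RPKM in prepupae (30.3 to 43.6) and 36.8 in pupae (30.03 to 44.6).

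The partner receptor appeared under more than 1 name. Ultraspiracle is the insect counterpart of the vertebrate retinoid X receptor, and insect sequences are filed under both names. Unigene129026_FOB, named ultraspiracle, had 51 prepupal and 43 pupal reads. Unigene153922_FOB (779 bases), named RXR-l after a locust protein, had 101 prepupal and 64 pupal reads, 0.751-fold (0.540 to 1.04). Its log2 ratio of −0.40 turned to 0.09 after centring on the overall median. Of all the receptor unigenes it carried the most reads. A pair of unigenes outside the rule was named retinoid X receptor, Unigene156085_FOB with 243 and 194 reads and Unigene100237_FOB with 77 and 51. Counted together, the 4 unigenes of the partner held 472 prepupal and 352 pupal reads, 0.884-fold (0.768 to 1.02), which is below 1 and above the overall median of 0.712. The unigene named ultraspiracle carried 51 and 43 of these reads.

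Which side of the receptor pair was more abundant per length depends on pooling and on whether the names outside the rule are counted. The 4 unigenes named for ultraspiracle or the retinoid X receptor had a pooled level of 91.1 RPKM in prepupae (83.1 to 99.7) against 36.5 for the ecdysone receptor. In pupae the values were 80.5 RPKM (72.3 to 89.4) and 36.8. The Poisson intervals of these pooled levels did not overlap in either library. Of the 472 prepupal reads of the partner, 320 came from the pair of unigenes outside the rule, chosen with the data already known. Among single unigenes of the rule, the leading ecdysone receptor unigene had 92.3 and 109 RPKM, ultraspiracle 71.5 and 71.4, and RXR-l 59.4 and 44.6. The intervals of that ecdysone receptor unigene and of ultraspiracle overlapped in both libraries. Outside the rule, Unigene100237_FOB had 151 RPKM in prepupae and 118 in pupae, above that ecdysone receptor unigene in both. Unigene156085_FOB had 108 and 102, above it in prepupae only. All other ecdysone receptor unigenes had lower point estimates than ultraspiracle and RXR-l in both libraries. They had 14.9 to 40.0 RPKM in prepupae and 14.5 to 36.2 in pupae. Some intervals overlapped, as in prepupae for Unigene108399_FOB (25.1 to 60.6) and RXR-l (48.4 to 72.2). Pooling assumes that the unigenes of a side belong together, which was not tested.

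E75, an early response gene that encodes a haem-binding nuclear receptor in Drosophila, had 1 well-covered unigene that was higher in pupae. Unigene139265_FOB (404 bases, reads over 98.5% of its length in prepupae and 99.01% in pupae) had 58 prepupal and 76 pupal reads, 1.55-fold (1.09 to 2.23). Its log2 ratio of 0.63 was short of the 2-fold rule and 1.12 above the overall median. The other two unigenes of that name were at the edge of detection. Unigene57666_FOB had 2 prepupal and 1 pupal reads. Unigene17660_FOB had 0 and 2, which passed the 2-fold rule at a log2 ratio of 2.06 but lies under the floor of 3 counts, so no fold is given.

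FTZ-F1, a nuclear receptor that in Drosophila prepares prepupal tissues for the next hormone pulse, matched 4 unigenes with ratios on both sides of 1. Unigene156327_FOB (1082 bases), named after the mosquito FTZ-F1 protein, had 19 prepupal and 32 pupal reads, 1.996-fold (1.10 to 3.73). Unigene146703_FOB (506 bases) had 27 and 29, 1.27-fold (0.727 to 2.24). These 2, named FTZ-F1 without a further letter, summed to 46 and 61 reads, 1.57-fold (1.05 to 2.36).

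The other two FTZ-F1 unigenes matched 1 and the same pea aphid protein, named FTZ-F1 beta. This name has been used both for a form of FTZ-F1 and for the related receptor HR39, so it does not settle the gene. Unigene130951_FOB had 44 prepupal and 26 pupal reads, 0.700-fold (0.414 to 1.16), while Unigene112399_FOB had 23 and 28, 1.44-fold (0.802 to 2.62). Their point estimates lay on opposite sides of 1 with overlapping intervals, and their sum was 0.955-fold (0.655 to 1.39).

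Only 2 of the 21 receptor unigenes, Unigene139265_FOB of E75 and Unigene156327_FOB of FTZ-F1, had a counting interval that excluded a ratio of 1, both towards higher values in pupae. The intervals are single ones and were not adjusted for their number. For 3 unigenes the whole interval lay between 0.5-fold and 2-fold, namely the leading ecdysone receptor unigene, ultraspiracle and RXR-l. For the other 18 the interval reached beyond 2-fold in at least 1 direction, so a difference of that size was not detectable or not bounded at this depth.

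**Figure D3:**
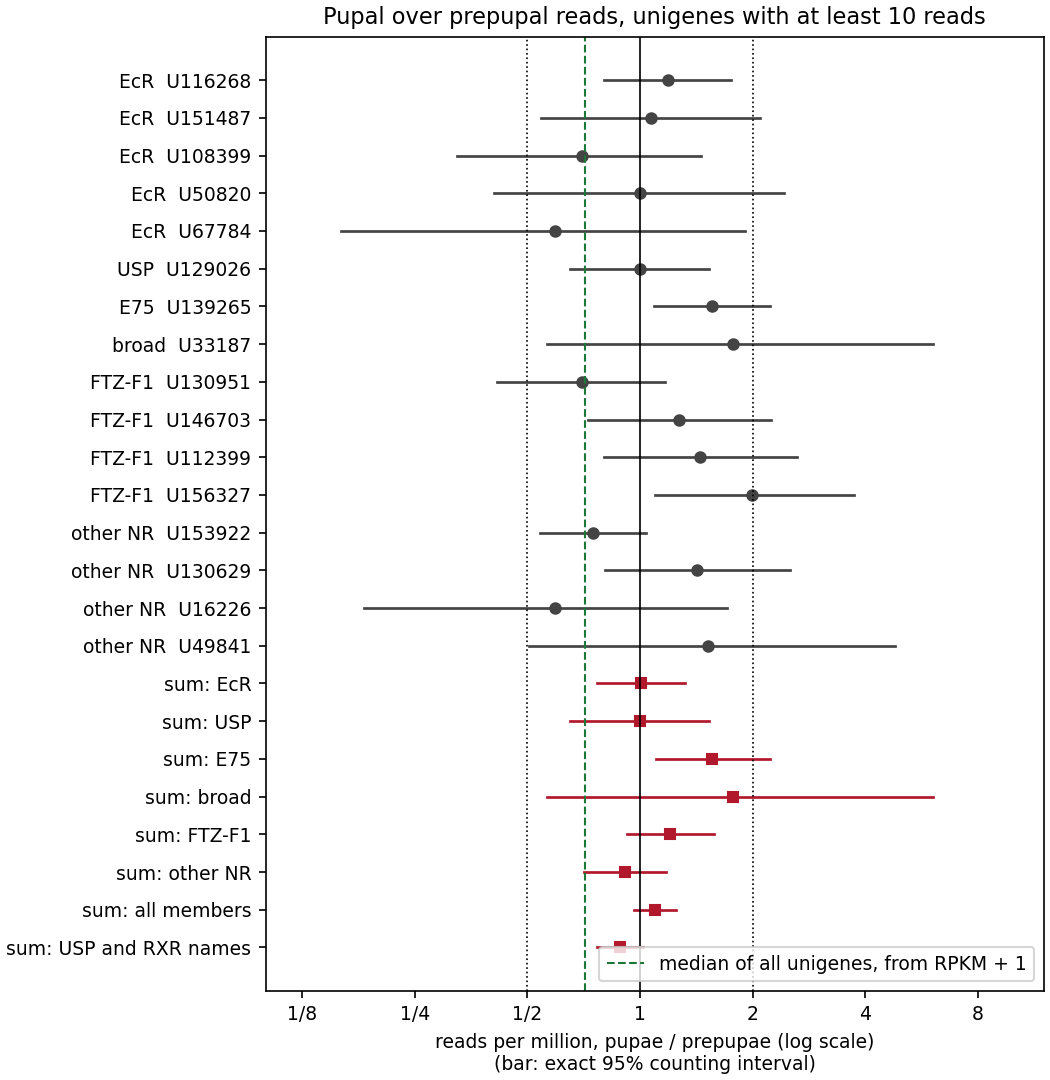
Ratio of RPM in pupae over prepupae (horizontal axis, log scale) for the 16 receptor unigenes with at least 10 reads (grey circles) and for sums over names (red squares); bars are exact 95% counting intervals, dotted lines mark 2-fold in either direction and the dashed line is the overall median of 0.712, which was computed on RPKM + 1. The ecdysone receptor sum lies at 1.01, the E75 sum at 1.56 with a bar that clears 1, and the sum of ultraspiracle and retinoid X receptor names at 0.884.

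Broad, a family of zinc finger factors that directs pupal development in insects with a full metamorphosis, was scarce and split. Unigene33187_FOB, the unigene named broad-complex, had 6 prepupal and 9 pupal reads, 1.78-fold (0.565 to 6.07). Outside the rule, 5 unigenes were named broad after a pea aphid protein, with differences in opposite directions. Unigene86148_FOB had 21 prepupal and 1 pupal reads, 17.7-fold lower (2.85 to 733). Unigene140184_FOB had 10 and 25, 2.96-fold higher (1.37 to 6.91), and Unigene97425_FOB 3 and 8. Over all 6 unigenes the reads were 48 and 47, 1.16-fold (0.760 to 1.77) although single unigenes differed both ways. Broad proteins share a domain with many other zinc finger proteins, and whether these unigenes are isoforms or relatives was not tested.

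Receptors under general names were mostly low. A pair named nuclear receptor after cockroach proteins led them. Unigene130629_FOB had 25 prepupal and 30 pupal reads, 1.42-fold (0.809 to 2.52), and Unigene49841_FOB 7 and 9. Unigene16226_FOB (1632 bases), similar to seven-up, a receptor of neuron and photoreceptor fate in Drosophila, had 12 and 6 reads, 0.593-fold (0.183 to 1.71). The remaining 3 held at most 3 reads in a library. Unigene36290_FOB, similar to NR6A1, a family known in vertebrates from germ cells, had 0 and 3 reads and was the other unigene called higher (log2 ratio 2.12). Unigene130803_FOB, named after nhr-91 of the worm, had 1 and 1. Unigene144742_FOB, similar to NR2E3, a photoreceptor nuclear receptor in vertebrates, had 1 and 0 and was the unigene that missed the filter.

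Beyond the counts, most receptor unigenes carried a matching function term, as a rule on database names makes likely, and their lengths varied widely. A function term for nuclear or steroid hormone receptor activity was attached to 17 of the 21, and to 35 unigenes in the whole series. Lengths ran from 164 to 1632 bases with a median of 338, against 254 over all unigenes. The 21 unigenes matched 20 different proteins of 10 species. They were carried by 1 to 165 reads each, with a median of 35 over both libraries, and the intervals of single unigenes are wide.

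Several later members of the hormone cascade carried other names in the database and fell outside the rule. These lists were completed after the data had been seen. HR3, a nuclear receptor that in Drosophila links the early genes to FTZ-F1, matched Unigene149930_FOB with 7 reads in prepupae and 20 in pupae, and Unigene150455_FOB, filed under its other name HR46, with 6 and 9. Their sum was 2.64-fold higher (1.33 to 5.54). The 3 unigenes named thr4 held 1 prepupal and 10 pupal reads, 11.9-fold higher (1.69 to 514). E93, which promotes adult development in insects, had 1 prepupal and 15 pupal reads in Unigene138399_FOB, 17.8-fold higher (2.74 to 749). All 3 names were low in prepupae and higher in pupae, on few reads.

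Not every late gene did this, and AHR38 went the other way. Unigene35055_FOB, named AHR38 after the mosquito form of HR38, a receptor that can pair with ultraspiracle, had 9 prepupal and 0 pupal reads, at least 2.53-fold lower against a floor of 3 counts, with an exact counting interval that reaches down to 1.67-fold lower. E78, a nuclear receptor of the same wave as HR3 in Drosophila, had 5 and 8 reads over 2 unigenes, 1.90-fold (0.547 to 7.37). The pupal cuticle protein Edg-78E, whose gene is named for its dependence on ecdysone, had 0 and 110 reads and was also higher in pupae. Over the 9 names of the cascade outside the rule, 7 of 17 filtered unigenes were called higher, 4 lower and 6 neither, with a median log2 ratio of 0.71. Of all filtered unigenes 23.0% were called higher and 39.4% lower.

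**Figure D4:**
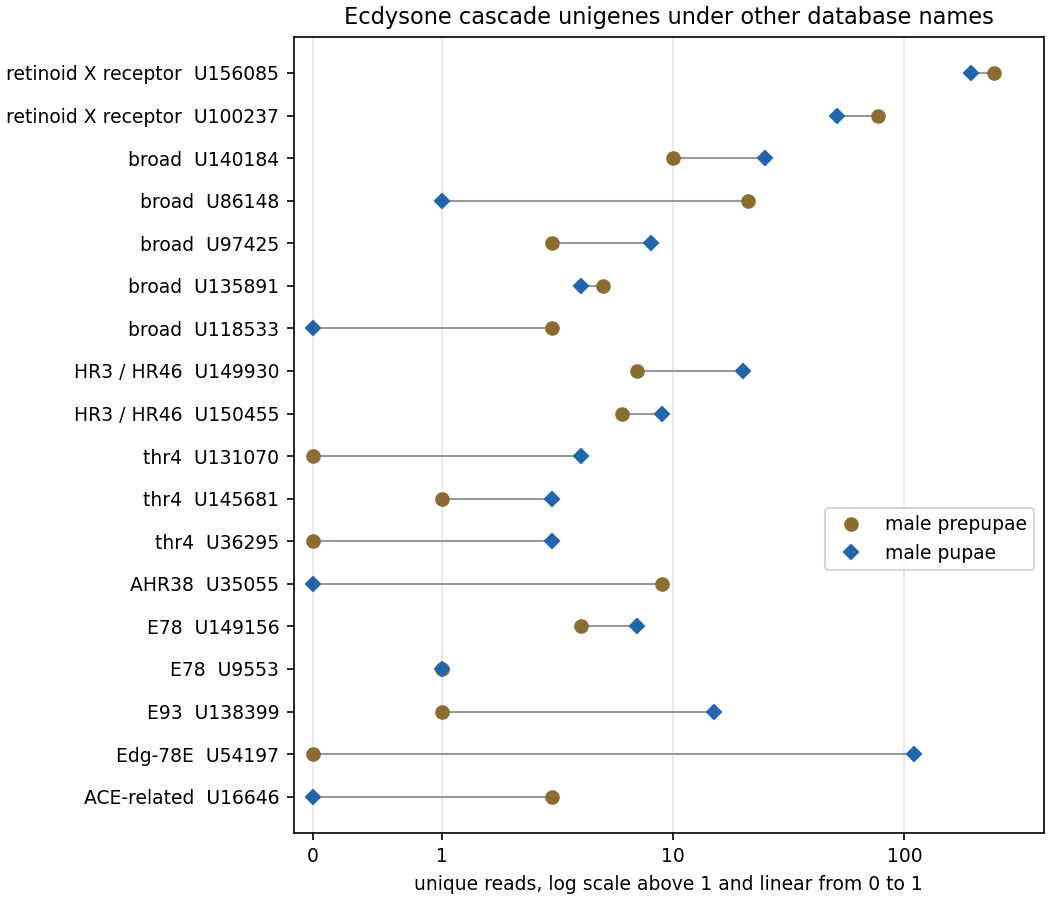
Unique reads (horizontal axis, log scale above 1 and linear from 0 to 1) in male prepupae (brown circles) and male pupae (blue diamonds), 1 library each, for 18 unigenes of the ecdysone cascade found under other database names. HR3, thr4 and E93 lie to the right in pupae, AHR38 has 9 reads and 0, and the broad unigenes point both ways.

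Enzymes that make and remove ecdysteroids matched 8 unigenes, of which 7 passed the filter, with 3 called higher, 2 lower and 2 neither, against 23.0% higher and 39.4% lower of all filtered unigenes. CYP18A1, which inactivates the hormone, had 9 prepupal and 30 pupal reads (Unigene101468_FOB, 3.95-fold higher, 1.83 to 9.46). CYP302A1, a hydroxylase late in ecdysone synthesis, matched 4 unigenes. The most abundant, Unigene126515_FOB, had 11 and 30 reads, 3.23-fold higher (1.57 to 7.15), while Unigene118543_FOB had 9 and 9. The 3 unigenes of CYP307A1, an enzyme of the early steps, held at most 4 reads in a library and included both lower calls. Reads of the list, which pools enzymes that make the hormone with one that removes it, summed to 45 and 85, 2.24-fold (1.54 to 3.29).

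Coregulators, which the rule left out, had nearly the same summed level in both libraries. Of 7 unigenes 0 were called higher, 1 lower and 6 neither (23.0% and 39.4% of all filtered unigenes were called higher and lower), and the reads summed to 264 and 222, 0.997-fold (0.830 to 1.20). The 5 unigenes of nuclear receptor coactivator 6 included none of the calls, with 56 and 63 reads in Unigene150789_FOB and 61 and 58 in Unigene157052_FOB. Those similar to a nuclear receptor binding SET domain protein, a histone methyltransferase, had fewer reads in pupae. Unigene154029_FOB had 67 and 29, 1.95-fold lower (1.24 to 3.13). Unigene120594_FOB, the one past the 2-fold rule, had 15 and 6, 2.11-fold lower with a wide interval (0.773 to 6.63).

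Chaperones of the HSP90 system, which loads steroid receptors and many other proteins, had fewer reads in pupae when summed. Of 9 unigenes 6 were called lower, 3 neither and 0 higher, with a median log2 ratio of −1.90, and reads summed to 516 and 99, 4.40-fold lower (3.54 to 5.51). FKBP59, an immunophilin, had 170 prepupal and 9 pupal reads (15.9-fold lower, 8.20 to 35.4). The HSP90-organising protein had 87 and 5 in Unigene48707_FOB. Cdc37, known mainly as a co-chaperone of kinases, made up 4 of the 9 unigenes and all 3 that were not called. Its unigenes had 65 and 30 reads in Unigene124496_FOB, 44 and 24 in Unigene45787_FOB, 12 and 8 in Unigene69829_FOB, and 12 and 1 in Unigene136914_FOB, the one called lower. Of all filtered unigenes 39.4% were called lower and 23.0% higher. The unigene named heat shock protein 90 had 80 and 10 reads but matched a slime mould protein best, so its origin is uncertain.

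The list of moult peptides and their receptors, which act around ecdysis, the shedding of the old cuticle, had 2 of 8 unigenes called higher, 0 lower and 6 neither. The share called higher is near the 23.0% of all filtered unigenes and is no result about this list, while 39.4% of all were called lower. The receptor of ecdysis triggering hormone had 14 and 63 reads in Unigene36747_FOB, 5.33-fold higher (2.96 to 10.3). The other unigenes of that receptor were not called, Unigene86523_FOB with 5 and 8 reads and Unigene145196_FOB with 6 and 6. Eclosion hormone, a trigger of this behaviour, had 6 prepupal and 31 pupal reads, 6.12-fold higher (2.52 to 17.96). Partner of bursicon, a subunit of the hormone that hardens new cuticle, had 96 and 57, 0.704-fold (0.498 to 0.987). That ratio is near the median of all unigenes, 0.712-fold. Bursicon itself had 5 and 4.

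Juvenile hormone, whose presence keeps a moult from leading to the adult, signals through methoprene tolerant. Its unigene had 80 prepupal and 38 pupal reads, 1.78-fold lower (1.19 to 2.69), which was short of the 2-fold rule on the log2 scale (−0.82). Of the 7 unigenes of that list 1 was called higher, 3 lower and 3 neither, near the 23.0% and 39.4% of all filtered unigenes. The calls were all in juvenile hormone-inducible protein 26, where Unigene130985_FOB had 108 and 43 reads and Unigene146174_FOB 30 and 112.

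**Figure D5:**
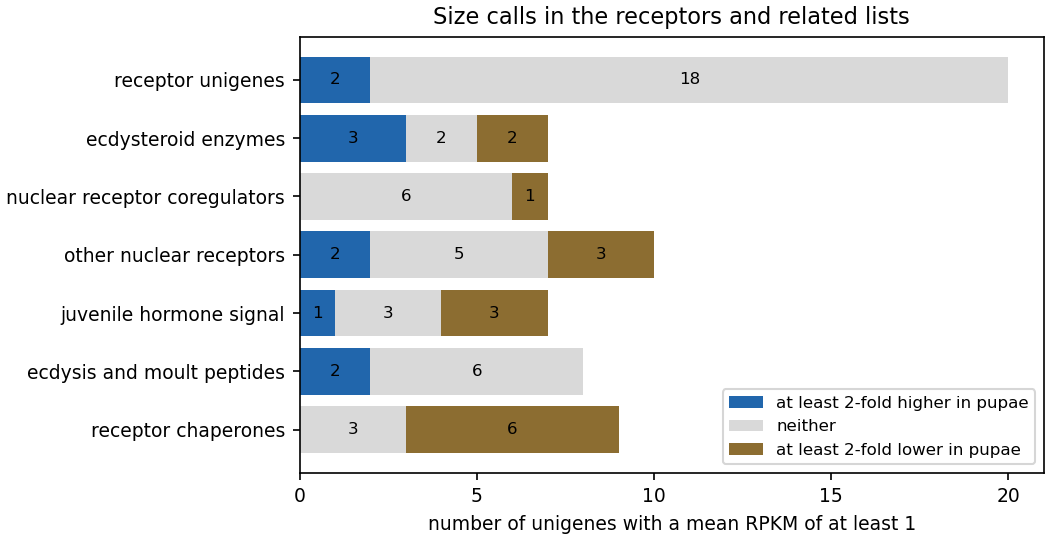
Number of unigenes whose mean RPKM was 1 or more (horizontal axis) that were at least 2-fold higher in pupae (blue), at least 2-fold lower (brown) or neither (grey), for the receptor unigenes and 6 related lists. The receptors show 2 higher and 18 neither, and the chaperones 6 lower and 3 neither.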

How the data were processed

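Per the file headers, the deposited columns are a count of reads assigned to a single unigene, a length, the percent of that length covered, an RPKM value (reads scaled to length and library total), Gene Ontology terms and a protein database match. No source used here names the assembler, the aligner or the filters on reads. The deposited counts summed to the header totals, and the deposited RPKM equalled values recomputed from reads, length and total within a relative tolerance of 1e-06. Reads shared between unigenes were not counted, per the file headers, so near-identical copies may have lost reads.

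Both tables were merged by unigene, with 0 reads where one lacked it. Analyses used Python 3.11.15, pandas 2.3.3 and SciPy 1.17.1. The pseudocount was 1, the filter a mean RPKM of 1 and the rule of size 2-fold. Ratios of RPM (reads scaled to the library total) carry exact (Clopper-Pearson) conditional intervals and levels exact Poisson intervals, both at 95%; they cover counting error only. A library at 0 reads entered a fold at a floor of 3 counts. Ratios, calls and intervals were tested on simulated data, with test unigenes deeper than the median receptor unigene. That test does not cover calls that rest on few reads.

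With 1 library per stage no p-value was computed. The members and lists were chosen with earlier results of these data known. The rule found 8 unigenes beyond 13 that had been listed by name, and all 21 were used. The keyword lists were rewritten on database names after the data had been seen, to drop unrelated matches and add other spellings. All receptor unigenes were named; from each list up to 4 unigenes with the most reads could be named, and any others were picked with their values known. Alternatives were other pseudocounts, filters and lengths, TMM scaling (edgeR 4.0.16 in R 4.3.3, factors only) and centring.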

Additional observations from a re-analysis of the deposited data

How the results depend on the processing

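The count of 0 receptor unigenes lower in pupae held under each of the 9 alternatives run, but most of them could not have changed it. Stricter filters and the 13 unigenes only drop members, a pseudocount of 5 shrinks ratios, and both scalings raised the ratios. Only the pseudocount of 0.1 or dropping the filter could have added a lower call. The 2 called higher were 2 with a pseudocount of 0.1 and without a filter, and 0 with a pseudocount of 5, a mean RPKM of at least 5, at least 500 bases or at least 20 summed reads; 1 of the 13 unigenes listed beforehand was called. TMM scaling gave 5 and centring on the overall median 7, while the number called higher over all unigenes rose as well. These 2 scalings moved the median of all unigenes from −0.49 to −0.01 and 0, and the share of lower calls among all calls from 63.1% to 51.1% in both. The median of the receptor unigenes was 0.69 after centring and between 0.09 and 0.55 otherwise. Sums under TMM and centring were 1.33-fold and 1.42-fold for the ecdysone receptor, 1.59 and 1.70 for FTZ-F1, 1.20 and 1.28 for other nuclear receptor names, and 2.05 and 2.19 for E75. The FTZ-F1 unigene with the most reads alone gave 0.700-fold, opposite in direction to the FTZ-F1 sum of 1.21. Of the 65 filtered unigenes of the related lists together, 15 were higher and 19 lower, against 23.0% and 39.4% of all filtered unigenes. The balance of these lists turned to 21 higher and 14 lower under TMM and likewise under centring. It was 12 and 10 at a mean RPKM of at least 5. At least 500 bases left 3 and 5, with fewer unigenes counted, and a pseudocount of 5 gave 12 and 13. Over all unigenes the calls shifted the same way, from 26264 higher and 44893 lower to 32761 and 34187 under TMM. Centring gave 34176 and 35653 over all unigenes. The alternatives on at least 20 reads, the 13 unigenes and the added names were chosen after seeing the data. No paired analysis was possible because each stage has 1 library, and no library could be left out. Depth is a further limit, with a median of 35 reads per receptor unigene over both libraries.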

Other observations

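Nuclear receptors under names other than those above included unigenes with higher RPKM than any of the 21 receptor unigenes. Whether they take part in the hormone cascade was not tested. Among 10 further unigenes with a receptor function term, 2 were called higher in pupae, 3 lower and 5 neither, near the 23.0% higher and 39.4% lower of all filtered unigenes. Hepatocyte nuclear factor 4, a regulator of lipid metabolism in Drosophila and mammals, had 225 reads in prepupae and 199 in pupae in Unigene136858_FOB, which is 270 and 283 RPKM, and 39 and 22 in Unigene118439_FOB. A pair named estrogen receptor-like after a cricket protein had 114 and 73 reads (Unigene63655_FOB) and 58 and 35 (Unigene45570_FOB), 0.759-fold (0.558 to 1.03) and 0.715-fold (0.456 to 1.11). Unigene146485_FOB, similar to a mosquito gene model without a name, had 135 and 51, 2.23-fold lower (1.61 to 3.15). Egon, a receptor of the knirps family, was chosen after its values had been seen: it had 0 reads in prepupae and 24 in pupae, at least 9.48-fold higher against a floor of 3 counts, with an exact counting interval that reaches down to 7.13-fold.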
